A study of Mus musculus with 4 samples.

Results

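The proteasome subunits were 35 genes of the deposited expression table, chosen by symbol as core and regulatory subunits of the 26S proteasome which the selection rule names as targets of the transcription factor Nfe2l1. All 35 symbols were found, each on 1 of the table's 54446 rows, and all 35 passed the filter of a mean of 1 FPKM that left 10900 rows for testing. FPKM counts sequenced fragments by kilobase of transcript and by library size, so that levels of different genes can be compared per length. The members comprised 14 subunits of the 20S core, 17 of the 19S regulatory particle and 4 activators.

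Polyadenylated RNA was sequenced from cultured muscle stem cells (satellite cells) of the hindlimb of C57BL/6 mice. The groups were knockdown cells, given siRNA against the long non-coding RNA LncMyoD, and control cells, given a control siRNA according to the sample descriptions, with n = 2 libraries each. Cells of both groups were grown in F10 medium with 10% HS and P/S, as the labels abbreviate the supplements, and harvested at 48 h. LncMyoD also appears as siRNA target in the protocol text of the controls, and the groups here follow the titles, descriptions and treatment tags. The level of LncMyoD itself was not analysed here, since 0 rows carried that name, and the knockdown labels therefore have no check from the target. No label says whether replicates came from separate animals or cultures, so the spread behind each p-value is that between these libraries and may be technical.

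The proteasome is the protease that degrades most ubiquitin-tagged proteins of the cell. Its barrel-shaped 20S core stacks outer rings of alpha subunits on inner rings of beta subunits, of which Psmb6, Psmb7 and Psmb5 carry the protease sites. The 19S particle caps the barrel. Its base holds AAA ATPases that unfold substrates and subunits that receive ubiquitin, and its lid holds the deubiquitinase that strips ubiquitin off. In skeletal muscle the ubiquitin-proteasome system is known for degrading sarcomere proteins during atrophy and for removing regulators as myoblasts leave the cell cycle. Nfe2l1 is a factor of the endoplasmic reticulum membrane that, when proteasome activity is low, is processed, enters the nucleus and raises transcription of most subunit genes through antioxidant response elements.

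Of the proteasome subunit transcripts, 31 of 35 averaged 50 FPKM or more over the libraries, and their levels differed little between knockdown and control cells. Of the 35 members, 0 passed the test (limma on log2(FPKM + 1), Benjamini-Hochberg adjusted p over all genes, threshold 0.05), where 0.0550% of all genes tested were called. At an unadjusted p under 0.05 there were also 0 members, against 7.08% of all genes. The median log2 fold change of the members, knockdown minus control, was 0.012, beside 0.026 over all genes. The sign of that median depended on the scaling and on single libraries: it was -0.018 with libraries scaled by median ratios and -0.016 with knockdown replicate 1 left out and -0.000032 without control replicate 2. Values above 0 were found in 20 members, 57.1%, against 54.8% of all genes. Among all tested genes, 1 was called higher (0.00917%) and 5 lower (0.0459%). Left-out libraries moved these counts: 4 higher and 11 lower without knockdown replicate 1, 2 and 5 when knockdown replicate 2 was omitted, 2 and 3 when control replicate 1 was omitted, and 4 and 2 when control replicate 2 was omitted. In bulk RNA, fewer cells of a type and less RNA per cell cannot be told apart.

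Nfe2l1 itself (chromosome 11, 96817414 to 96829968, minus strand, GRCm38) had 13.0 and 17.7 FPKM in the knockdown libraries and 2.28 and 2.56 FPKM in the control libraries. Both knockdown libraries lay above both controls. Its log2 fold change was 2.24 ± 0.21 (SE), with a limma adjusted p of 0.0511, just outside the threshold. With median ratio scaling the adjusted p was 0.0491 and with a pseudocount of 0.1 it was 0.0426, with 0.0426 to 0.727 over all its alternatives. The members had log2 fold changes between -0.18 for Psma3 and 0.34 for Psme4. For 34 of 35 members the log2 fold change was under 0.25 in size, which held for 70.2% of all genes. The 95% interval lay wholly within a 1.5-fold change in either direction for 32 of 35 members, the exceptions being Psme1, Psme3 and Psme4, and for 40.3% of all genes. The median standard error was 0.093 for the members and 0.20 for all genes, and the median levels were 119 and 7.02 FPKM. A p that misses the threshold does not show that a level did not differ; the intervals give the differences that remain possible.

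**Figure D1:**
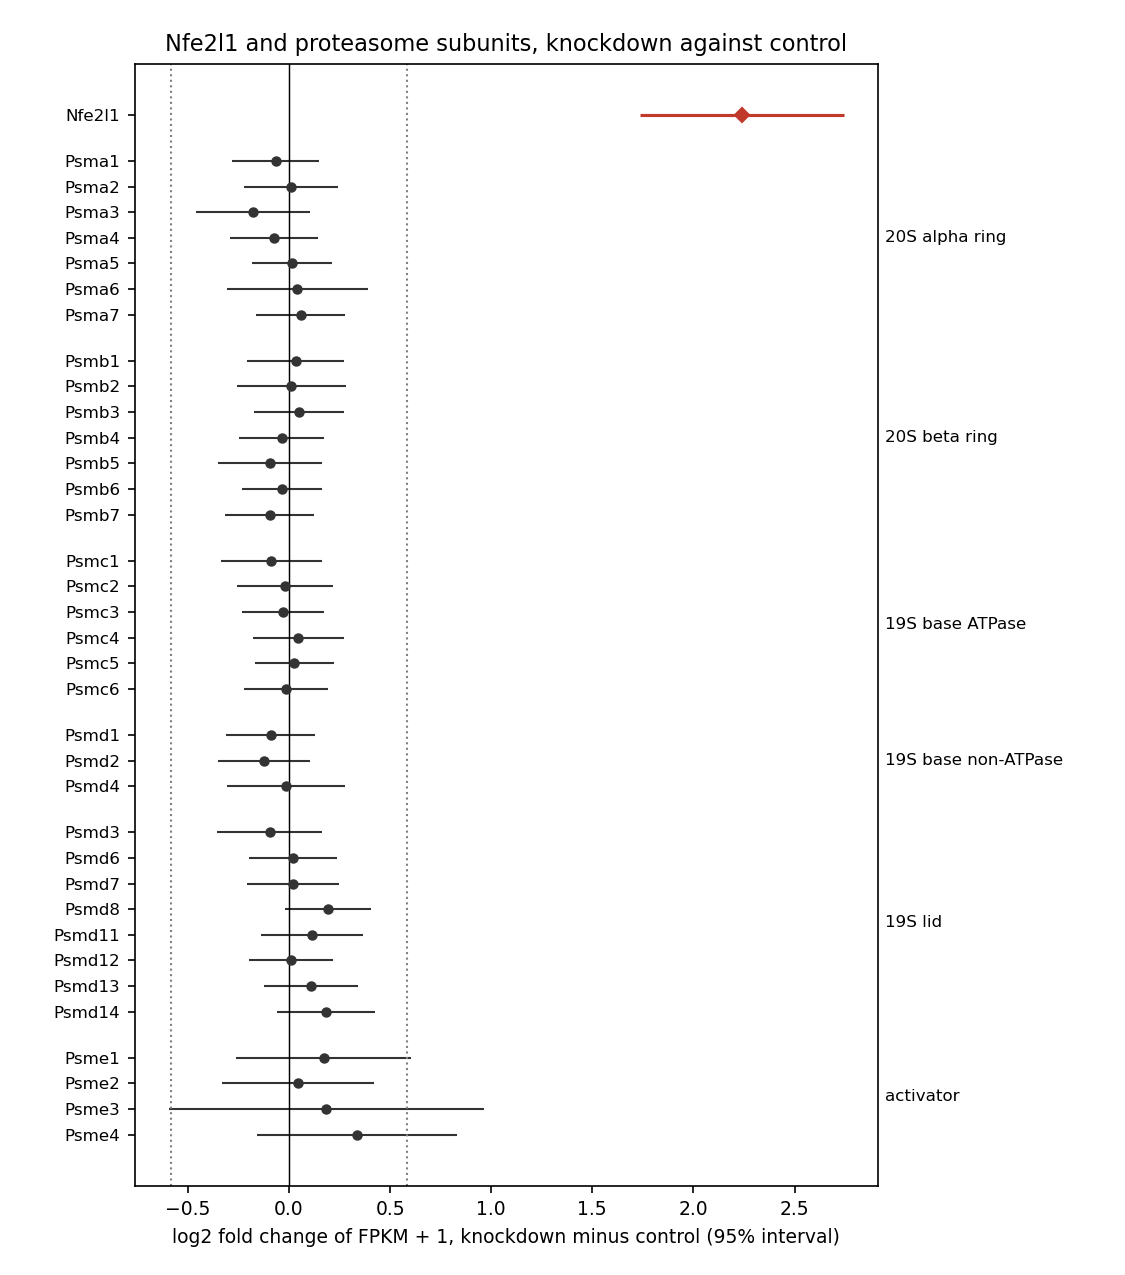
Log2 fold change of FPKM + 1, knockdown minus control, with its 95% interval from limma, for Nfe2l1 (diamond) and the 35 proteasome subunits (circles) grouped by subunit class; dotted lines mark a 1.5-fold change. The Nfe2l1 interval lies far to the right at 2.24, while the subunits lie around 0 and only the intervals of Psme1, Psme3 and Psme4 cross a dotted line.

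**Figure D2:**
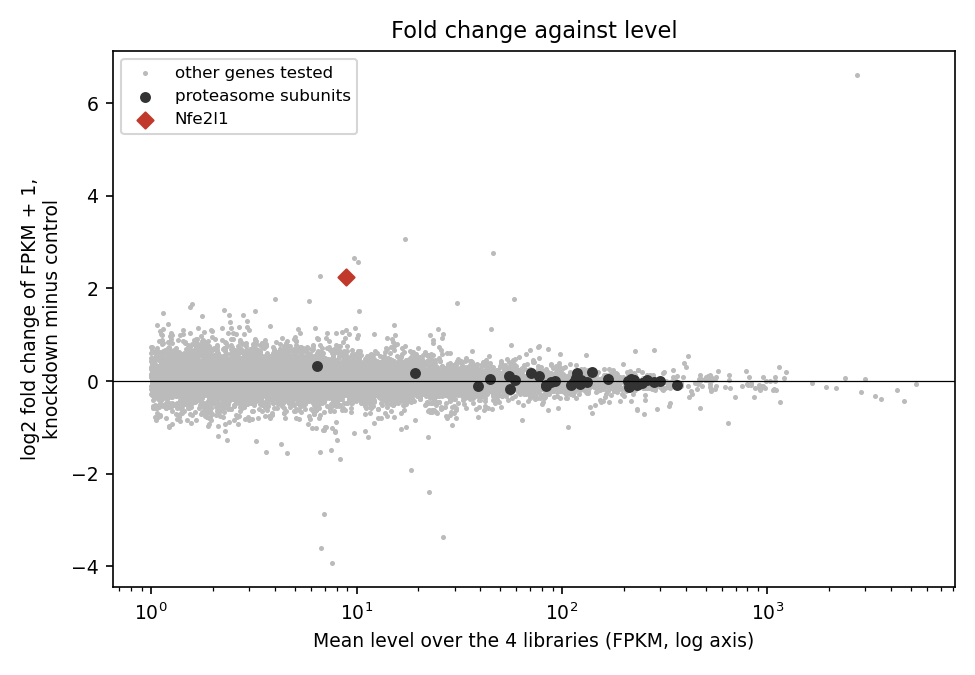
Log2 fold change, knockdown minus control, against mean level in FPKM (log axis) for all genes tested (grey), the proteasome subunits (black) and Nfe2l1 (red diamond). Single genes scatter more at low levels, and all subunits except Psme4 and Psme1 sit to the right, where the scatter is narrow.

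Values of both knockdown replicates exceeded both control values in 5 members, Psmd8, Psmd11, Psmd13, Psmd14 and Psme4, that is 14.3% against 22.1% of all genes. Both lay below for 8 members, Psma1, Psma3, Psma4, Psmb4, Psmb7, Psmd1, Psmd2 and Psmd3, that is 22.9% against 16.3%. With 1 library left out, fewer values need to be separated: there were 12 above and 15 below without knockdown replicate 1, 16 above and 13 below without knockdown replicate 2, 10 above and 8 below without control replicate 1 and 10 above and 12 below without control replicate 2. The counts moved with the scaling, with 3 members above and 11 below under median ratio scaling, and 6 above and 5 below under quantile normalization. For these scalings and for the fits with 1 library left out, the shares over all genes were not computed. Those counts therefore have no background beside them. In 18 members the 2 knockdown libraries lay on opposite sides of the control mean. Summed, the 35 members made up 1.57% and 1.52% of the FPKM total of the knockdown libraries, against 1.54% and 1.53% of that of the controls. The lower knockdown library therefore lay below both controls in this share and the higher one above both.

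Mean levels over the 4 libraries spanned 6.41 FPKM for Psme4 to 365 FPKM for Psmc1. The core subunits ranged from 56.1 FPKM (Psma3) to 299 (Psmb2), and the 19S subunits from 39.0 (Psmd3) to 365 (Psmc1). The median level was 116 FPKM in the alpha ring, 123 in the beta ring, 237 among the ATPases, 121 in the lid and 31.9 among the activators. At the top of the order, the per-library ranges of Psmb2 and Psmc3 overlapped, while all 4 values of Psmc1 lay above those of Psmb2, and all 4 of Psmc3 above those of Psmc5.

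**Figure D3:**
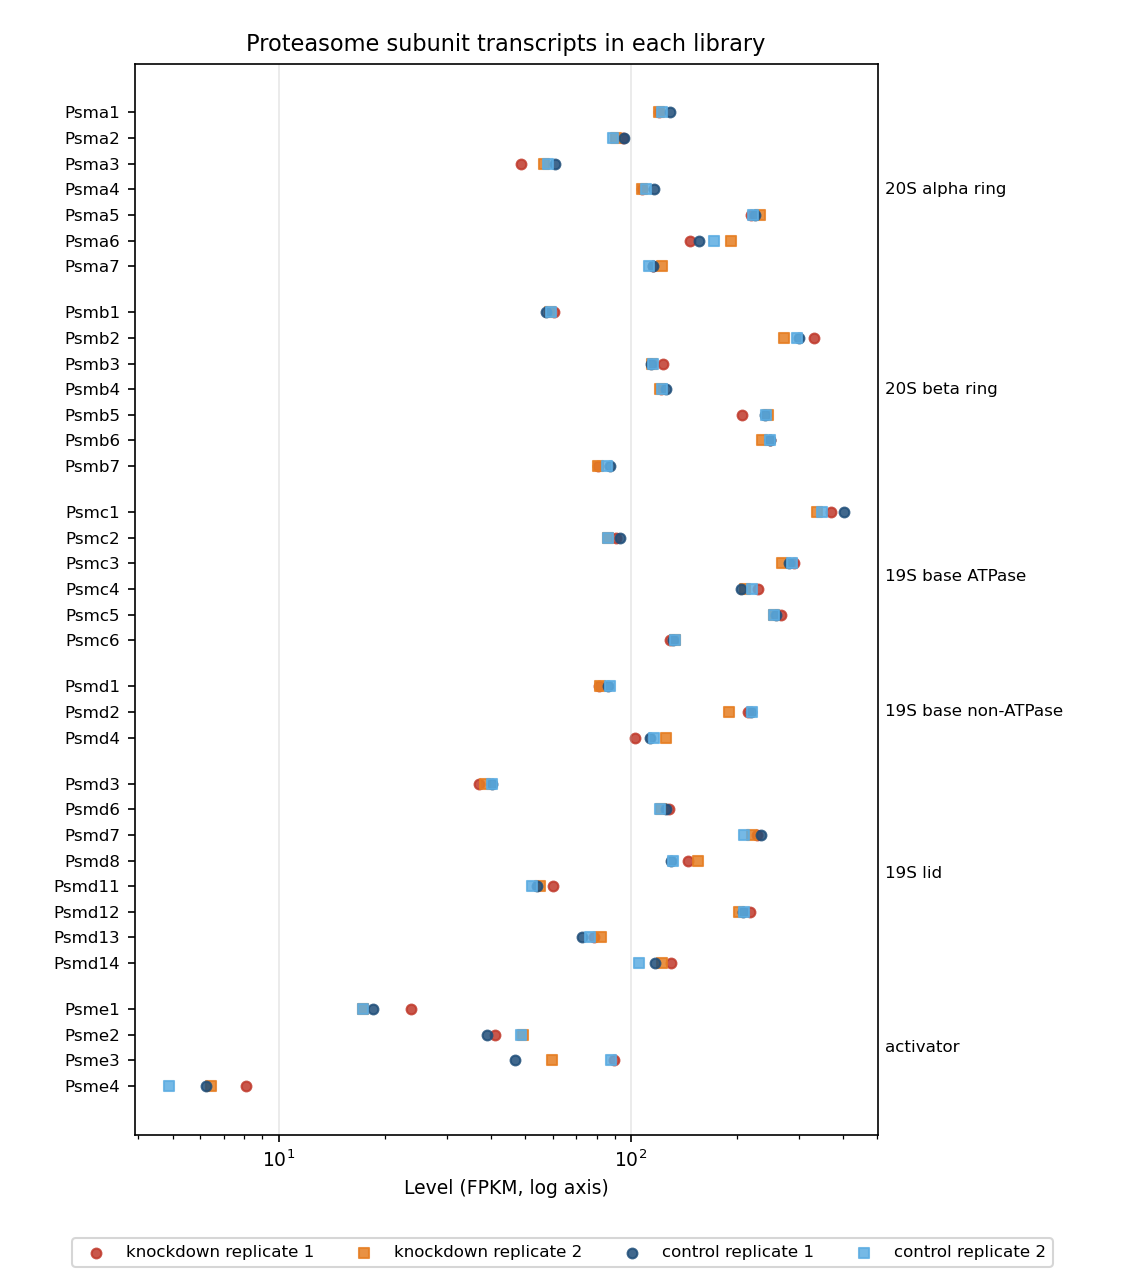
Level in FPKM (log axis) of each of the 35 subunits in the 2 knockdown (red, orange) and 2 control (dark and light blue) libraries, grouped by subunit class. For most subunits the 4 points nearly coincide, and the wide spreads are those of Psme3, Psme4, Psme1 and Psma6.

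Among the alpha subunits, which form the outer rings and the gate of the core, the log2 fold changes ran from -0.18 to 0.057, with 4 positive, 3 negative and a median of 0.0087, which was -0.021 with median ratio scaling and -0.069 to -0.025 with any 1 library left out. Psma3 had 48.8 and 56.6 FPKM after knockdown and 61.0 and 58.1 FPKM in the controls (-0.18 ± 0.12 SE, limma adjusted p 0.771). Its knockdown values were the lower ones, with replicate 1 farthest down, and the log2 fold change was -0.072 without knockdown replicate 1 and -0.28 without knockdown replicate 2. Psma1 had 119.8 and 120.3 FPKM after knockdown against 129 and 123 in the controls, and Psma4 had 108 and 107 against 116 and 110.3. In both, the knockdown libraries lay just below the controls, by less than 0.1 on the log2 scale. Psma6 had 148 and 193 FPKM after knockdown against 156 and 172 in the controls. Its knockdown replicates were the lowest and the highest of the 4 libraries, so the groups overlapped. Psma5, the most abundant alpha subunit, averaged 226 ± 8.66 FPKM after knockdown and 224 ± 1.51 in the controls, Psma7 119 ± 5.02 against 114 ± 2.52, and Psma2 92.8 ± 3.06 against 92.3 ± 4.36 (SD, n = 2 each).

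The beta ring holds the active sites, and its members had log2 fold changes between -0.096 and 0.050, with 3 positive and 4 negative. The median of -0.036 was 0.0025 with quantile normalization and 0.0023 without knockdown replicate 2. Psmb6, the subunit with caspase-like activity, had 248 and 235 FPKM after knockdown and 248 and 248 FPKM in the controls, and its 95% interval was -0.23 to 0.16. Psmb7, with trypsin-like activity, had 80.8 and 80.8 FPKM after knockdown and 87.2 and 85.7 in the controls. The Psmb7 groups did not overlap, at a log2 fold change of -0.096 (limma adjusted p 0.855). Psmb5, the chymotrypsin-like subunit and the main target of proteasome inhibitor drugs, had 207 and 245 FPKM after knockdown and 239.8 and 241 in the controls. Knockdown replicate 1 alone stood below the rest, and the Psmb5 interval was -0.35 to 0.16. Of the beta subunits without an active site, Psmb2 had 331 and 272 FPKM after knockdown against 299 and 296 in the controls, with the knockdown libraries on either side of the controls. Psmb4 averaged 121 ± 0.687 FPKM after knockdown and 124 ± 1.84 in the controls, Psmb3 119 ± 6.09 against 115 ± 1.19, and Psmb1 59.8 ± 1.11 against 58.4 ± 1.42 (SD, n = 2 each).

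The 6 ATPases of the base, Psmc1 to Psmc6, form the ring that unfolds substrates and threads them into the core. Their log2 fold changes lay between -0.087 and 0.046, and in each the knockdown and control groups overlapped. Psmc1 had 369.9 and 337 FPKM after knockdown and 402 and 349.7 in the controls. The next most abundant, Psmc3, had 289.6 and 268 FPKM after knockdown and 282 and 287 in the controls, and Psmc5 had 267 and 255 after knockdown against 257 and 254 in the controls. In each of these the values of the groups interleaved. Psmc4 averaged 220.0 ± 13.4 FPKM after knockdown and 213 ± 11.2 in the controls, Psmc6 131 ± 3.40 against 133 ± 0.772, and Psmc2 88.3 ± 3.30 against 89.5 ± 4.76 (SD, n = 2 each). The ATPase median of -0.016 was 0.017 with quantile normalization, 0.0032 without control replicate 1 and 0.023 without knockdown replicate 2.

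The other base subunits had negative log2 fold changes in 3 of 3 cases, while 54.8% of all genes had positive ones. That of Psmd4 was positive with quantile normalization and without knockdown replicate 1. Psmd2, a scaffold to which ubiquitin shuttle factors dock, had 214 and 190.3 FPKM after knockdown against 219 and 221 in the controls (-0.12 ± 0.093 SE, limma adjusted p 0.807). Psmd1, the second large scaffold, had 80.9 and 81.7 FPKM after knockdown against 86.1 and 87.3 in the controls. In both scaffolds the knockdown libraries lay below both controls, as in 16.3% of all genes, but neither difference passed the test. The Psmd2 value was -0.21 without knockdown replicate 1 and -0.038 without knockdown replicate 2. Psmd4, a ubiquitin receptor, had 103 and 126 FPKM after knockdown against 114 and 116 in the controls. Its knockdown replicates lay on either side of the controls.

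The lid had 7 of 8 positive log2 fold changes, 87.5% against 54.8% of all genes. Those of Psmd6, Psmd7 and Psmd12 were negative with median ratio scaling. The lid median was 0.065, with a range of 0.028 to 0.087 over the fits that leave out 1 library. Psmd8, a subunit that in yeast completes lid assembly, had 146 and 155 FPKM after knockdown and 130.1 and 132 FPKM in the controls. Its knockdown libraries were both higher, and its log2 fold change of 0.19 ± 0.087 (SE) had the lowest unadjusted p of all members, 0.0668, with a limma adjusted p of 0.698. Psmd14, the deubiquitinase of the lid, had 129.8 and 123 FPKM after knockdown and 117 and 105 in the controls (0.18 ± 0.099 SE, adjusted p 0.737 by limma), and its log2 fold change was 0.11 without control replicate 2. Psmd13 had 78.7 and 82.1 FPKM after knockdown and 72.5 and 76.4 in the controls. Psmd11, which in yeast clamps the lid to the core, had 60.0 and 55.3 FPKM after knockdown and 54.0 and 52.3 in the controls. In these 4 genes, 50% of the lid members, both knockdown values lay above both controls, against 22.1% of all genes. The gap between the nearest knockdown and control values was smallest in Psmd11 and Psmd13. Psmd3, a large lid subunit, was the 1 lid member with a negative value: it had 37.0 and 38.4 FPKM after knockdown and 40.2 and 40.5 in the controls (-0.096, adjusted p 0.873 by limma). Psmd7, the partner of the deubiquitinase, averaged 224 ± 4.32 FPKM after knockdown and 222 ± 17.9 in the controls, Psmd12 211 ± 10.6 against 209 ± 1.02, and Psmd6 125 ± 4.14 against 123 ± 3.53 (SD, n = 2 each). No test of the lid against the other classes was made.

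The activators dock to the core in place of the 19S particle. They had the lowest median level and the largest median standard error of the classes. All 4 had positive log2 fold changes, against 54.8% of all genes. Those of Psme1, Psme2 and Psme3 were negative with certain libraries left out. The 4 activators had a median of 0.18 that ran from 0.050 without control replicate 1 to 0.43 without knockdown replicate 2. Psme4, a large single-chain activator that in mammals acts in DNA repair and spermatogenesis, had 8.09 and 6.43 FPKM after knockdown and 6.22 and 4.88 FPKM in the controls. Both knockdown libraries were higher, knockdown replicate 2 only slightly above control replicate 1, and the log2 fold change was 0.34 ± 0.20 (SE; limma adjusted p 0.763). It ran from 0.19 without control replicate 2 to 0.48 without control replicate 1, and was 0.19 without knockdown replicate 1. Psme3, the nuclear member of the 11S family, had 89.6 and 59.5 FPKM after knockdown and 46.8 and 87.8 in the controls. A high and a low library occurred in each group, and the interval of -0.59 to 0.96 was the widest of all members. Psme1, which pairs with Psme2 in the interferon-inducible 11S activator, had 23.8 and 17.4 FPKM after knockdown and 18.6 and 17.4 in the controls. Only knockdown replicate 1 stood apart. Psme2 had 41.2 and 49.3 FPKM after knockdown and 39.1 and 48.9 in the controls, with a lower and a higher library in each group.

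**Figure D4:**
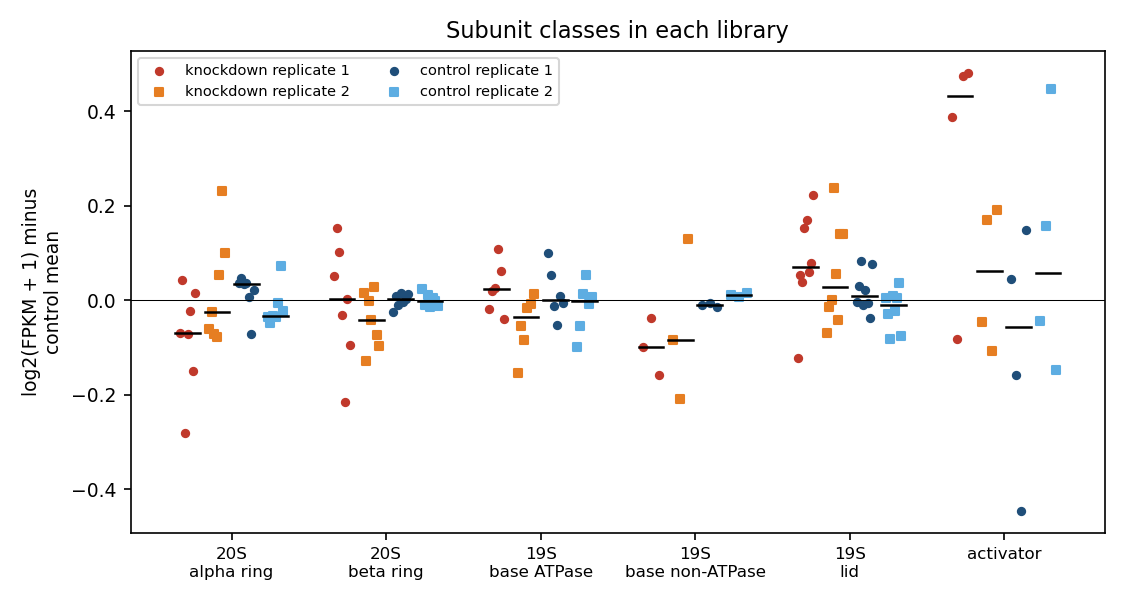
Level of each subunit in each library as log2(FPKM + 1) minus the mean of the 2 controls, by subunit class; points are subunits, black bars the class median in that library. The class medians of the knockdown libraries stay within 0.1 of 0 except for the activators in knockdown replicate 1, at 0.43.

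Several subunits have near-identical copies elsewhere in the genome with FPKM of their own in the table. Among annotated transcripts of other genes, 12 rows with a mean of at least 1 FPKM matched a member transcript at 95% identity or more over at least 500 bases, a rule set after these data were seen, and they belonged to 10 members. The largest was Gm13835 (chromosome 6, 31141979 to 31142663, minus strand, GRCm38), annotated as a processed pseudogene. It is 100% identical to a Psma3 transcript over 685 bases. The first 90 coding bases of Psma3 and the matching bases of Gm13835, from the GENCODE M21 transcripts, are shown because their 0 differing bases leave reads from this stretch without a distinguishing letter. Lower case marks identical bases.
Psma3: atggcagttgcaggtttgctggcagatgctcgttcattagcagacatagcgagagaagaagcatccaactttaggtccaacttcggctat
Gm13835: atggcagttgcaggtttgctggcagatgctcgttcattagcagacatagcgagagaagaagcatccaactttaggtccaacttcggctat

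Gm13835 had 248 and 279 FPKM after knockdown and 304 and 300.5 FPKM in the controls, so that the pseudogene row held 83.1% to 83.8% of the pair's summed FPKM. The sum was 297 and 336 FPKM after knockdown against 365 and 359 FPKM in the controls. Both knockdown sums lay below both control sums. Tested as 1 row, the sum differed by a log2 fold change of -0.20 ± 0.091 (SE); the adjusted p was 0.704 by limma. The place of Psma3 as the lowest core subunit depends on the pseudogene row, since the summed mean lies between those of Psmb2 and Psmc1. The split of reads between such rows is uncertain, and how the authors' counting divided them was not tested.

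Psme2b, a protein-coding copy of Psme2 on chromosome 11, had 39.5 and 36.6 FPKM after knockdown and 35.9 and 35.4 FPKM in the controls, or 42.0% to 49.0% of the pair. The copies are 99.4% identical over 794 bases. The stretch below was chosen as the coding window of its length with the most differing bases. Such bases are therefore denser there than over the whole match. It starts at coding base 454 and holds 3 differing bases, shown in capitals. Only reads over such bases tell the genes apart.
Psme2: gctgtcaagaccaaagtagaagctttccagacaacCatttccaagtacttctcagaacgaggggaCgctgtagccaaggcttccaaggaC
Psme2b: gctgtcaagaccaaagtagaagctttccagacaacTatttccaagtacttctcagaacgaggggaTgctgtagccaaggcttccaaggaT

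Summed with its copy, Psme2 had 80.8 and 85.9 FPKM after knockdown against 74.9 and 84.3 FPKM in the controls. The groups still overlapped, and the log2 fold change was 0.067 with a narrower standard error of 0.11. Copies held 27.9% to 28.4% of the summed FPKM for Psma5 (Gm8394 and Gm12989) and 26.7% to 27.8% for Psmb3 (AC114990.3 and Gm4950). For Psma2, Psma4, Psmb5, Psmc1, Psmd2 and Psmd11 the share stayed under 10%. The Psmd11 match, A730017L22Rik, reads on the opposite strand over 1501 bases, and its whole FPKM was still added to Psmd11. After summing, 0 members passed the limma test. As before summing, 5 lay above and 8 below both controls, and the shares over all genes were not computed again. Exons of 9 members also overlap those of another gene, mostly on the opposite strand, and no strand setting is given; the most abundant of these neighbours were Htr2b, beside Psmd1, and Slc39a13, beside Psmc3, with means of 14.3 and 13.7 FPKM.

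**Figure D5:**
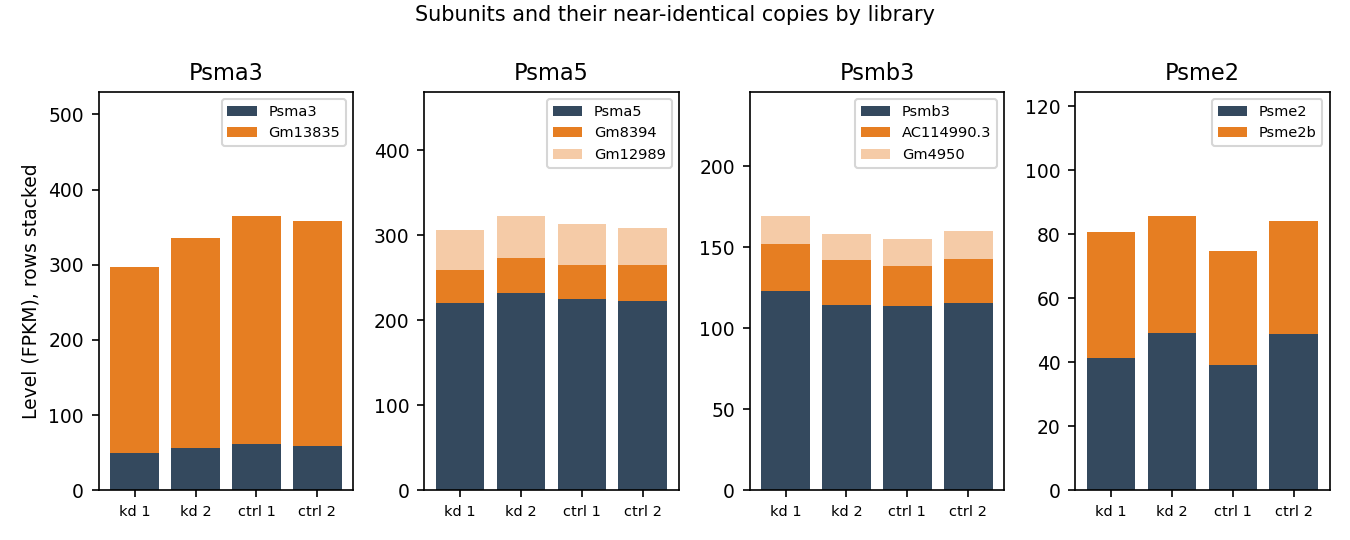
Stacked FPKM of Psma3, Psma5, Psmb3 and Psme2 (dark) and of their near-identical copies (orange, light orange) in knockdown (kd) and control (ctrl) replicates 1 and 2. The copy row is the larger part for Psma3 only, and the share of the copies is nearly the same in all 4 libraries for Psma3, Psma5 and Psmb3.

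Nfe2l1 binds antioxidant response elements, so the RefSeq promoters of the members (GRCm38.p6, 250 bases before to 50 bases after each gene start) were searched for the element's core, TGACNNNGC, on both strands. Promoters were matched by symbol for 29 of 35 members, in 32 windows. The core occurred in 5 windows, 15.6%, against 12.4% of all 32851 windows, a share near the background. These 5 promoters, of Psme4, Psmb5, Psmb6, Psmc6 and Psmd12, are printed because they are the members whose window holds the letters that Nfe2l1 is known to read; capitals mark the match.
Psme4: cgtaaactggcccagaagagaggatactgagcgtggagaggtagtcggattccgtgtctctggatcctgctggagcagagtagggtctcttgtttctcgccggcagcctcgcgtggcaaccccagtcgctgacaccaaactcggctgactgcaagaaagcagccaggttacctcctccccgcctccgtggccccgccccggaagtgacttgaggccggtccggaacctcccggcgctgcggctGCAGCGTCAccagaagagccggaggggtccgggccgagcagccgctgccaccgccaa
Psmb5: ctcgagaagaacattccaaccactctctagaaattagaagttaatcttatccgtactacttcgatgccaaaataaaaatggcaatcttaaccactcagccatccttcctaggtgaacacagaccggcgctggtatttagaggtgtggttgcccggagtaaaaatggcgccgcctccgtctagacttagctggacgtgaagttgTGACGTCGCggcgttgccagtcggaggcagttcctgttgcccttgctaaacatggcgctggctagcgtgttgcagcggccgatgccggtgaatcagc
Psmb6: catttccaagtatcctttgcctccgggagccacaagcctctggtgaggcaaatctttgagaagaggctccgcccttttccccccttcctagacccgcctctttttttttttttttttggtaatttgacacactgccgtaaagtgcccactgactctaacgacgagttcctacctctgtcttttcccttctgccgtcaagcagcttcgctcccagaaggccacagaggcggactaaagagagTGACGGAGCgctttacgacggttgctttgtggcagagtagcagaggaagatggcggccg
Psmc6: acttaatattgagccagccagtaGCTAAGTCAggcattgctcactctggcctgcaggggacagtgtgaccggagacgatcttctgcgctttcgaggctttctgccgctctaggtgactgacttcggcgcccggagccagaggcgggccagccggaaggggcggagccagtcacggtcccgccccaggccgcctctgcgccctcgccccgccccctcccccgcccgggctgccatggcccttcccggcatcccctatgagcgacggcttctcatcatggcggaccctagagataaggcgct
Psmd12: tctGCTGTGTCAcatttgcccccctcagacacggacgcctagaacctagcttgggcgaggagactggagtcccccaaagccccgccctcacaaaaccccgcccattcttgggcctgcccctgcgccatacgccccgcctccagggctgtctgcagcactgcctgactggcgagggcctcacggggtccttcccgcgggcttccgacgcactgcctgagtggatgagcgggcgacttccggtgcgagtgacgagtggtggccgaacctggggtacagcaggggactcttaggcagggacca

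The windows lie at chr11:30771525-30771824 (plus strand), chr14:54617946-54618245 (minus strand), chr11:70525107-70525406 (plus strand), chr14:45329574-45329873 (plus strand) and chr11:107479278-107479577 (plus strand). The match starts 7 bases before the gene start in Psme4, 9 in Psmb6, 47 in Psmb5, 227 in Psmc6 and 247 in Psmd12. In Psmb5 and Psmb6 it reads on the strand of the gene and in the other 3 on the opposite strand. The 5 members with the core had a median log2 fold change of -0.014, in a range of -0.094 to 0.34. The other 24 with a promoter had a median of 0.024, in a range of -0.18 to 0.19. The CCAAT box, CCAAT on both strands, occurred in 11 of the 32 windows, 34.4%, against 37.4% of all windows, and 0 windows held both motifs. A match describes letters in this window only.

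Genes around the proteasome were followed in further lists. From each list, the 2 tested genes with the lowest p were picked for naming, a choice that favours separated groups. Of 8 further subunits in the table, 5 were tested and 0 passed. The inducible subunit Psmb8, which replaces Psmb5 in the immunoproteasome, had 3.70 and 5.29 FPKM after knockdown and 3.61 and 3.61 FPKM in the controls, far below Psmb5, and the inhibitor gene Psmf1 had 9.09 and 8.32 after knockdown against 8.32 and 7.57 in the controls. In Psmb8 knockdown replicate 2 alone stood apart. Psma8 and Psmb11, which belong to testis and thymus particles, were listed at 0 in every library. Of 8 assembly chaperones 0 passed, with 4 positive and 4 negative. Psmg2, which pairs with Psmg1 in building the alpha ring, had 52.8 and 66.0 FPKM after knockdown against 75.8 and 67.7 in the controls (adjusted p 0.717 by limma), and the base chaperone Psmd9 had 7.13 and 8.76 against 10.5 and 8.93. In both genes the knockdown libraries were the lower ones, as in 3 of the 8 chaperones, against 16.3% of all genes.

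Of 9 deubiquitinases, ligases and shuttle factors of the proteasome 0 passed, with 7 positive and 2 negative. The shuttle factor Rad23b had 15.3 and 16.1 FPKM after knockdown against 13.8 and 14.2 in the controls and the ligase Ube3c had 5.07 and 4.74 against 4.56 and 3.09. For both, knockdown libraries lay above controls, as for 4 of the 9 genes, against 22.1% of all genes. Of 11 genes of Nfe2l1 and its processing 0 passed, with 5 positive and 6 negative. Both knockdown libraries lay above both controls in 3 of the 11, Nfe2l1 included, against 22.1% of all genes. They lay below both controls in 4 of the 11, against 16.3%. Nfe2l2, the paralogue that answers oxidative stress, had 33.0 and 31.9 FPKM after knockdown against 33.3 and 35.3 in the controls, and its log2 fold change was -0.078, interval -0.35 to 0.19. Sel1l, an adaptor of endoplasmic reticulum degradation through which Nfe2l1 is turned over, had 24.0 and 15.6 FPKM after knockdown against 10.6 and 10.2 in the controls (log2 fold change 0.84, adjusted p 0.600 by limma). Both Sel1l knockdown values were higher, replicate 1 most.

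Of 6 ubiquitin and E1 enzyme genes 0 passed, with 1 positive and 5 negative. Rps27a, which codes for ubiquitin fused to a ribosomal protein, had 65.9 and 72.6 FPKM after knockdown against 81.7 and 75.5 in the controls. The E1 enzyme gene Uba1 had 54.1 and 68.1 FPKM after knockdown against 69.9 and 69.9 in the controls, with knockdown replicate 1 lowest. Of 5 tested muscle ubiquitin ligases 0 passed, with 3 positive and 2 negative. Fbxo30 had 56.5 and 39.6 FPKM after knockdown against 35.7 and 36.2 in the controls and Trim55, a ligase of the sarcomere, had 9.44 and 7.02 against 8.91 and 14.2. The adjusted p-values were 0.703 and 0.760 by limma.

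The name muscle stem cells is that of the labels, and marker genes were read beside it. Myod1 had 583 and 667 FPKM after knockdown and 698 and 691 FPKM in the controls, and Myog, a factor of differentiating myoblasts, had 3406 and 2793 after knockdown against 4196 and 3931 in the controls. Both genes were lower in the 2 knockdown libraries than in the controls, without passing the test (limma adjusted p 0.752 and 0.607). Myf5 was also lower, at 6.11 and 7.31 FPKM after knockdown against 8.20 and 7.63 in the controls. So in 3 of the 4 tested myogenic genes both knockdown libraries lay below both controls, against 16.3% of all genes. For Des the groups overlapped, at 221 and 287 FPKM after knockdown against 285 and 273 in the controls. What part these differences have in the subunit values was not tested. Pax7, the satellite cell factor, was below the filter, at 1.40 and 0.625 FPKM after knockdown and 1.02 and 0.859 in the controls. Levels of Myog and Myod1 lay far above that of Pax7, so the name satellite cells rests on the labels and not on Pax7. Markers of other cell types summed to 0.271 and 1.07 FPKM after knockdown against 1.09 and 0.607 in the controls for 4 leukocyte genes, with Ptprc and Adgre1 listed at 0 in every library. For 4 endothelial genes the sums were 2.66 and 1.28 FPKM after knockdown against 0.801 and 1.79 in the controls, mostly from Tek, and Kdr was listed at 0. Schwann cell genes stayed under 1 FPKM in sum, smooth muscle and pericyte genes under 2 FPKM, and of the fibro-adipogenic genes only Col3a1, at 27.4 and 29.4 FPKM after knockdown against 23.0 and 24.4 in the controls, was above 1 FPKM.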

How the data were processed

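SMART-Seq v4 cDNA was sequenced as paired 150 nt reads on a NextSeq 500, per the labels' protocols. Tools listed in the submitters' processing notes, without roles or order, are StringTie 1.3.3, HISAT2 2.1.0, SAMtools 1.3, Trimmomatic 0.36 and bcl2fastq 2.19, with the build mm10. The authors deposited 1 FPKM value per gene and library, with no counts; the unit was read from the values, and for annotation and strand the sources used here give nothing. In genes with 1 transcript of 1 exon, small products of FPKM and length were whole numbers of steps for 84.8% to 85.5% of values (tolerance 0.1 of a step). The step was the one with the highest such share, so the 20% of a fixed step is not its chance level. Steps were searched only within a narrow preset range, and 1 step was taken as 1 covered base, which was not checked. Under these assumptions, an FPKM of 1 on 1 kb would rest on 36.6 to 41.1 reads of 150 nt. No whole read counts were recovered for spliced genes, so no count model was used. Column sums were 317223 to 322496 FPKM.

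The 10900 rows with a mean of at least 1 FPKM entered limma 3.58.1 (R 4.3.3) on log2(FPKM + 1) with a mean-variance trend, two-sided, with Benjamini-Hochberg adjustment over all of them (2 residual and 4.09 prior degrees of freedom). Fold changes on this scale understate changes of low genes. The steps were also run on simulated data, and no result here rests on that run. Coordinates are from GENCODE M21 (GRCm38, the assembly behind mm10), copies from BLAST 2.17.0 against its transcripts, promoters from RefSeq. Members and lists were chosen with earlier results of these data known. All members, Nfe2l1, Nfe2l2 and, per list, the 2 genes with the lowest p were named. Alternatives were a replicate block, quantile and median ratio scaling, a pseudocount of 0.1, no filter, a filter at 5 FPKM, no trend, and each library left out.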

Additional observations from a re-analysis of the deposited data

How the results depend on the processing

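In each alternative run, including the summing of members with their copies, which was chosen after seeing the data, 0 members passed the limma test; the lowest adjusted p of a member was 0.388, without knockdown replicate 1, where a lone library is assumed to vary like the other group. No label says what libraries of the same replicate number share. The correlation of same-numbered deviations across genes was -0.021, which cannot show that they share nothing. With the replicate block, 1 gene was called higher and 2 lower, and 0 members. Over all genes, calls higher were 2 with median ratio scaling, 2 with a pseudocount of 0.1, 0 with no filter and 2 to 4 with 1 library left out; calls lower were 0 with no filter, 3 without the trend and 2 to 11 with 1 library left out. Why these counts moved was not tested. Members above both controls numbered 3 with median ratio scaling, 6 with quantile normalization and 10 to 16 with 1 library left out. Members below both controls numbered 11 with median ratio scaling, 5 with quantile normalization and 8 to 15 with 1 library left out. The shares over all genes were not computed in these runs. The members' median log2 fold change was -0.018 with median ratio scaling, 0.037 with quantile normalization and -0.016 to 0.020 with 1 library left out.

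No member had a called direction, and values near 0 changed sign. With quantile normalization the log2 fold change was 0.0025 for Psmb6, 0.016 for Psmc2, 0.018 for Psmc3, 0.014 for Psmc6 and 0.017 for Psmd4. With median ratio scaling it was -0.021 for Psma2, -0.015 for Psma5, -0.018 for Psmb2, -0.0022 for Psmc5, -0.0093 for Psmd6, -0.0098 for Psmd7 and -0.020 for Psmd12. With 1 library left out the range was -0.039 to 0.056 for Psma2, -0.024 to 0.054 for Psma5, -0.15 to 0.23 for Psma6, -0.13 to 0.15 for Psmb2, -0.0021 to 0.10 for Psmb3, -0.22 to 0.028 for Psmb5, -0.074 to 0.0023 for Psmb6, -0.19 to 0.014 for Psmc1, -0.071 to 0.036 for Psmc2, -0.085 to 0.026 for Psmc3, -0.016 to 0.11 for Psmc4, -0.0079 to 0.063 for Psmc5, -0.040 to 0.012 for Psmc6, -0.041 to 0.060 for Psmd12, -0.16 to 0.13 for Psmd4, -0.013 to 0.054 for Psmd6, -0.062 to 0.10 for Psmd7, -0.046 to 0.39 for Psme1, -0.11 to 0.20 for Psme2 and -0.26 to 0.63 for Psme3. All other members kept their sign in these fits. Among them, the range was -0.28 to -0.072 for Psma3, -0.21 to -0.038 for Psmd2, 0.15 to 0.24 for Psmd8, 0.11 to 0.26 for Psmd14 and 0.19 to 0.48 for Psme4. With 2 libraries per group the median half-width of the 95% interval over all genes was 0.48 on the log2 scale.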
